A study of Homo sapiens with 4 samples.

Results

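The genes described here are 10 members of the insulin-like growth factor (IGF) axis and of the IGF2 mRNA-binding protein family, taken by gene symbol from the 18398 rows of each library. They are the ligands IGF1 and IGF2, the receptors IGF1R and IGF2R, the secreted carriers IGFBP1 to IGFBP4, and the RNA-binding proteins IGF2BP1 and IGF2BP3. The rule uses symbols and no measured value, although the genes were picked with earlier results of these data known. RNA came from Huh1 and Huh7, both established human hepatocellular carcinoma cell lines. Cells of each line received either NCsiRNA, a negative control siRNA against no endogenous transcript, or CDCA8siRNA (the CDCA8-1siRNA of the study) at 15 nM for 48 h, which targets borealin, a subunit of the chromosomal passenger complex of mitosis. All 4 groups therefore share transfection with a siRNA in a cationic lipid, and no untransfected cells were analysed here. There was 1 library for each line and siRNA, so the spread between cultures of 1 condition could not be measured, and each knockdown rests on a single siRNA sequence.

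The IGFs are small peptide hormones that the liver makes and that act through the tyrosine kinase IGF1R. IGF2R, which is also the cation-independent mannose 6-phosphate receptor, carries IGF2 to lysosomes for degradation, and the IGF-binding proteins hold most secreted IGF in complexes that lengthen its life or keep it from the receptor. IGF2 and the IGF2 mRNA-binding proteins are known as oncofetal genes, abundant in fetal liver, low in adult hepatocytes and often expressed again in hepatocellular carcinoma.

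Levels are given as RPKM, a read count divided by transcript length and by library depth, so that they can be set beside each other between genes. The values of the 4 libraries rest on 12197606 to 13384836 reads, and 2568 to 3169 rows per library were at 0. The targeted gene CDCA8 stood at 24.1 RPKM in Huh1 with NCsiRNA, 5.86 in Huh1 with CDCA8siRNA, 51.5 in Huh7 with NCsiRNA and 7.36 in Huh7 with CDCA8siRNA. Its level was lower with CDCA8siRNA by the limma test described next (log2 difference -2.26, Benjamini-Hochberg adjusted p = 0.00192). All 10 hepatocyte markers looked up were present in every library, with albumin at 721 to 3450 RPKM, while the endothelial markers summed to at most 0.0247 RPKM. The 4 blood markers summed to 15 to 27.7 RPKM, carried by CD68 (23.3, 16.5, 3.71 and 3.73 RPKM in the order above) and LYZ (0.855, 1.67, 11.1 and 23.4 RPKM, higher with CDCA8siRNA by limma, adjusted p = 0.0217), with the pan-leukocyte gene PTPRC at 0.417 RPKM or less. The stromal list was not low in Huh7, where COL1A1 stood at 107 and 125 RPKM against 0.115 and 0.122 RPKM in Huh1.

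Differences were taken on log2(RPKM + 1), which makes the change of a low gene smaller than the ratio of its RPKM values. A fit in limma over all 4 libraries, with terms for line and siRNA, gave 2 tests for each of the 12148 genes whose level reached 1 RPKM in any library. A gene was called at a Benjamini-Hochberg adjusted p under 0.05. The siRNA term asks whether the level changed with CDCA8siRNA on average over both lines. Its error, shared with the line term, combines the difference between the responses of the lines (1 residual degree of freedom) with a variance that limma borrows from all genes tested (7.48 prior degrees of freedom). The SE and p therefore measure neither the agreement of the lines for a single gene nor the spread between repeated cultures. Within 1 line a single library was compared with a single library, so a 2-fold difference is given there with no test. The sampling SD quoted beside such a fold change covers the counting of reads only, and the read numbers behind it are approximate because they were recovered from RPKM with transcript lengths from another annotation. In bulk RNA, fewer cells that express a gene and less RNA of that gene per cell cannot be told apart.

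**Figure D1:**
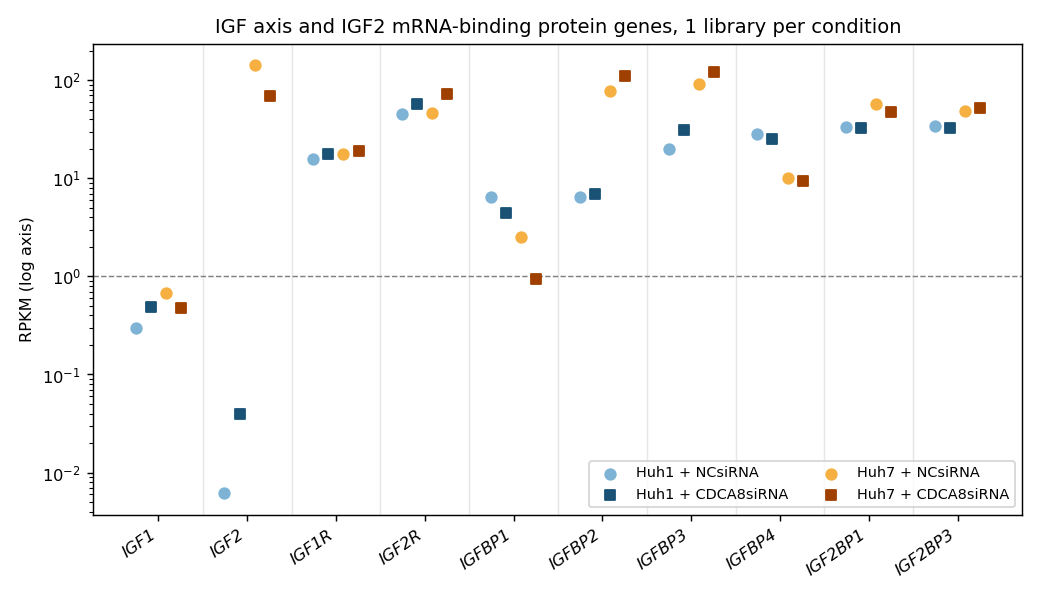
RPKM of the 10 genes on a log axis, with circles for NCsiRNA, squares for CDCA8siRNA, blue for Huh1 and orange for Huh7. Each point is 1 library, there are no error bars because no condition was repeated, and the dashed line marks 1 RPKM. IGF2 ran from 0.00615 RPKM in Huh1 to 142 RPKM in Huh7, while IGF1R stayed between 15.6 and 19.1 RPKM in the 4 libraries.

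Of the 10 genes, 9 entered the fit and IGF1 did not. IGF2 entered it only through its level in Huh7. With CDCA8siRNA, 2 of the 9 were higher (IGF2R and IGFBP3), 1 was lower (IGFBP1) and 6 did not pass the test. Over all genes tested, 3.74% were called higher and 2.65% lower. The median log2 difference over the 9 genes was 0.02, beside 0.0315 over all genes tested. At 2-fold, 0 of the 8 members that passed the filter in Huh1 were called, where 0.320% of genes were higher and 0.174% lower. In Huh7, 1 of 9 was called, namely IGF2, which was lower, beside 0.873% of genes higher and 0.700% lower. The Huh1 and Huh7 fold changes had the same sign for 7 of the 10 genes. The share over all genes was not computed, so this count shows neither agreement nor disagreement beyond the background. IGF1 in every library and IGF2 in Huh1 lay under 1 RPKM, where a sign carries little information.

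The lines differed from each other far more widely than the siRNAs did. Between Huh7 and Huh1, 5 of the 9 members were higher in Huh7 (IGF2, IGFBP2, IGFBP3, IGF2BP1 and IGF2BP3), 2 were lower (IGFBP1 and IGFBP4), and the receptors IGF1R and IGF2R did not pass the test. IGF2 is in this count although it passed the filter only through Huh7. These counts are to be read against a background in which 42.5% of all genes tested were called higher in Huh7 and 28.7% lower, and 7 of 9 members is close to that share. The line term compares 2 libraries a line, which differ in siRNA, and it cannot separate the origin of a line from anything else that differed between its cultures. The median of the line term over all genes tested was 0.141 and moved to -0.00593 under quantile normalization.

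IGF1 encodes the growth factor that adult liver secretes under growth hormone. Its level was 0.299 RPKM in Huh1 with NCsiRNA, 0.486 in Huh1 with CDCA8siRNA, 0.671 in Huh7 with NCsiRNA and 0.480 in Huh7 with CDCA8siRNA. No library reached 1 RPKM, so IGF1 was not tested. The values overlap between siRNAs and between lines. They would rest on about 2.92 to 5.98 reads if the authors used the 730-nucleotide transcript that matches the row, and on about 29.4 to 60.3 reads with the 7359-nucleotide transcript of the same gene, so the depth behind IGF1 stayed uncertain. IGF1 occupies bases 102395874 to 102481744 of chromosome 12 (GRCh38, minus strand).

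IGF2, the fetal growth factor of the pair, had the widest range of the 10 genes. It stood at 0.00615 RPKM in Huh1 with NCsiRNA, 0.0391 in Huh1 with CDCA8siRNA, 142 in Huh7 with NCsiRNA and 69.8 in Huh7 with CDCA8siRNA. Huh7 therefore carried a high level in both libraries, and Huh1 carried almost none in either. The Huh1 values amount to about 0.46 and 2.88 reads, and the Huh7 values to about 9651 and 4783 reads. With NCsiRNA, the Huh7 level was 3530 times the level that 3 reads would give in the Huh1 library (0.0401 RPKM), and the lower 95% counting limit of the ratio was 2870 when the Huh1 reads were rounded to 0. With CDCA8siRNA the ratio was 1710 when the Huh1 reads were rounded to 3, with a 95% counting interval of 586 to 8320. The line term of limma was 6.62 ± 0.211 (SE, 4 libraries, Benjamini-Hochberg adjusted p = 3.02e-08). IGF2 passed the filter only through Huh7, where it is high, so this p is no independent support for the difference, which rests on the levels and reads above. The size of the line term depends on the pseudocount, and with 0.1 RPKM in place of 1 RPKM it was 9.68. In Huh7 with NCsiRNA, IGF2 had a higher RPKM than each of the other 9 genes, and in Huh1 it had the lowest of the 10.

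In Huh7, IGF2 with CDCA8siRNA stood at 49.3% of its level with NCsiRNA, a log2 difference of -1.01 with a sampling SD of 0.0252. It lay at the edge of the 2-fold limit, and under quantile normalization the difference was -0.98. In Huh1 the log2 difference was 0.05 with a sampling SD of 0.0345, at a depth where a change by the same factor was not detectable. The siRNA term over both lines was -0.48 ± 0.211 and did not pass (limma, adjusted p = 0.218). The summed level of the 10 hepatocyte markers in Huh7 was 3480 RPKM with NCsiRNA and 2490 RPKM with CDCA8siRNA, beside 6290 and 5340 RPKM in Huh1. Of these markers, 7 were lower with CDCA8siRNA by limma (ALB, APOA1, APOB, SERPINA1, HNF4A, TF and FGB) and 3 did not pass, of which TTR stood at 29.3 and 48.5 RPKM in Huh7 and APOA2 at 163 and 164 RPKM, and AFP was the other. Their part in the IGF2 difference was not tested. IGF2 lies on chromosome 11 of GRCh38 from 2129112 to 2149603 on the minus strand, and its transcript has 4 exons and 5585 nucleotides. The read-through gene INS-IGF2 shares this locus and was at 0 RPKM in 3 libraries and 0.196 RPKM in Huh7 with CDCA8siRNA. The library kit does not mark strand, so reads of IGF2 and of antisense RNA across it cannot be told apart. INS and the neighbouring imprinted gene H19 were looked up by symbol and had no row in the libraries, so no level can be given for them.

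**Figure D2:**
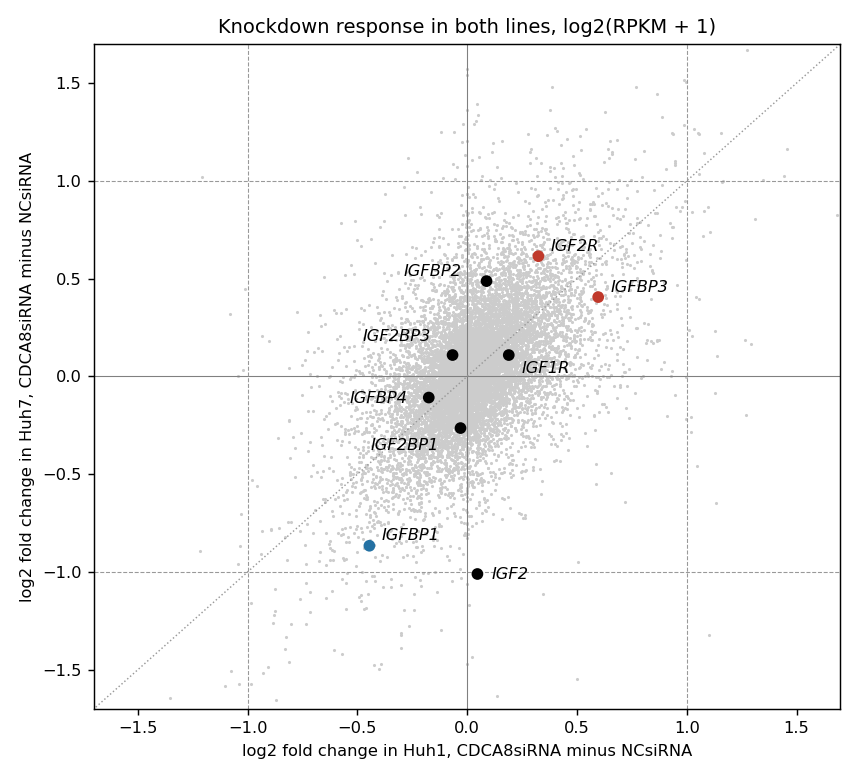
Log2 fold change with CDCA8siRNA in Huh1 (x axis) against that in Huh7 (y axis) on log2(RPKM + 1), 1 library against 1 library on each axis. Grey points are all genes in the limma fit, except 14 genes beyond the axes, and large points are the 9 members in the fit (red, higher with CDCA8siRNA by limma; blue, lower; black, not called). IGF2R and IGFBP3 lie at the upper right, IGFBP1 at the lower left, and IGF2 at 0.05 in Huh1 and -1.01 in Huh7. The dashed lines mark 2-fold.

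IGF1R, the signalling receptor, held nearly 1 level throughout. It was 15.6 RPKM in Huh1 with NCsiRNA, 17.9 in Huh1 with CDCA8siRNA, 17.6 in Huh7 with NCsiRNA and 19.1 in Huh7 with CDCA8siRNA, on about 2557 to 2896 reads. Both knockdown libraries lay above both controls by a small margin, and the lines overlapped. Neither the siRNA term (0.15 ± 0.0992, limma adjusted p = 0.418) nor the line term (0.12 ± 0.0992, limma adjusted p = 0.286) passed the test. The gene spans chromosome 15 of GRCh38 from 98648539 to 98964530 on the plus strand. INSR, the insulin receptor, with which IGF1R can form hybrids, stood at 4.19, 4.11, 6.84 and 5.08 RPKM in the same order of libraries, so the IGF1R level was 2.58 to 4.36 times the INSR level.

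IGF2R, the receptor that clears IGF2 and sorts lysosomal enzymes, was one of the 2 members called higher with CDCA8siRNA by limma. Its level was 45.4 RPKM in Huh1 with NCsiRNA, 57.0 in Huh1 with CDCA8siRNA, 46.5 in Huh7 with NCsiRNA and 71.7 in Huh7 with CDCA8siRNA. The control libraries of the lines lay close together, and both knockdown libraries lay above both controls. The log2 fold change was 0.32 in Huh1 (sampling SD 0.0206) and 0.61 in Huh7 (sampling SD 0.0204), on about 7963 to 12354 reads a library. Over both lines the siRNA term was 0.47 ± 0.0993 (limma, adjusted p = 0.0310), higher in 2 of 2 lines. The call was lost without the filter on low values (limma adjusted p = 0.445), without the line term (1.00) and without the trend (0.119). The line term was 0.18 ± 0.0993 and did not pass (limma, adjusted p = 0.133). The IGF2R level was 2.91 times that of IGF1R in Huh1 with NCsiRNA and 3.18 times with CDCA8siRNA, and 2.64 and 3.76 times in Huh7.

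The gene occupies chromosome 6 of GRCh38 from 159969099 to 160113507 on the plus strand, and its transcript has 48 exons and 14044 nucleotides. Its RefSeq promoter window is printed because IGF2R rose in both lines and because the window is rich in 1 short palindrome. Promoter windows of RefSeq, from 250 bases before to 50 after a gene's start, were found for 7 of the 10 members and not for IGF2, IGFBP1 or IGF2BP1. The IGF2R window (GRCh38.p14, chr6:159968832-159969131, plus strand) holds TCACGTGA at 3 places, printed in capitals.
IGF2R promoter: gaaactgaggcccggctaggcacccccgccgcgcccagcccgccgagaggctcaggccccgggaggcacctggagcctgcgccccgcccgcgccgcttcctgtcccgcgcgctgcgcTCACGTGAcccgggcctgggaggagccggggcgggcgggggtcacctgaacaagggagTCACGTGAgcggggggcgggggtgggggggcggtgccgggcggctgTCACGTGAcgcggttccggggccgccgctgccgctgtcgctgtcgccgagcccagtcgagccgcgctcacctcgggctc

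TCACGTGA reads the same on both strands and is the core of the element known from promoters of lysosomal genes, which the MiT/TFE factors bind. It was chosen after this sequence had been seen. Of 35116 promoter windows of the same length, 344 (0.98%) hold it at least once and 4 (0.0114%) at 3 or more places. Among the 10 windows of the 7 members, the IGF2BP3 window holds it once and the other windows besides that of IGF2R do not hold these letters. A match is a description of the sequence and not a measured binding site. The 8 genes of the fixed list for mannose 6-phosphate sorting, which include M6PR (the smaller of the receptors that sort lysosomal enzymes), GNPTAB and the GGA adaptors, gave 0 calls in either direction with CDCA8siRNA, beside 3.74% higher and 2.65% lower over all genes tested, with a median log2 difference of 0.03. M6PR stood at 46.5, 45.6, 71.9 and 75.2 RPKM in the order Huh1 with NCsiRNA, Huh1 with CDCA8siRNA, Huh7 with NCsiRNA and Huh7 with CDCA8siRNA (siRNA term 0.02, limma adjusted p = 0.927). The difference between its response and that of IGF2R was not tested.

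By the distance between log2 values centred on each gene's mean, the genes with the pattern most like that of IGF2R over the 4 libraries were GOLGA4 (distance 0.0309), MAP1LC3B (0.042) and POMGNT1 (0.0591), among 8689 genes with a mean of at least 5 RPKM. GOLGA4, which encodes a golgin of the trans-Golgi network, stood at 25.8, 32.1, 25.7 and 40.1 RPKM in the same order. MAP1LC3B, an autophagosome protein, stood at 51.5, 65.3, 52.4 and 78.9 RPKM. With 4 libraries, many genes can follow 1 pattern closely.

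IGFBP1, a carrier that liver secretes and that insulin represses, was the member that fell with CDCA8siRNA by the test. It was 6.43 RPKM in Huh1 with NCsiRNA, 4.46 in Huh1 with CDCA8siRNA, 2.53 in Huh7 with NCsiRNA and 0.939 in Huh7 with CDCA8siRNA, on about 142, 97.2, 51.1 and 19 reads. Both Huh7 libraries lay below both Huh1 libraries, and within each line the knockdown library was the lower. The ratio to control was 0.693 in Huh1 and 0.370 in Huh7. On log2(RPKM + 1) this was -0.45 (sampling SD 0.159) and -0.87 (sampling SD 0.216). The siRNA term was -0.66 ± 0.150 (limma, adjusted p = 0.0394), lower in 2 of 2 lines, and with a pseudocount of 0.1 RPKM it was -0.93 and lost the call (limma, adjusted p = 0.0587). The call was also lost without the filter (limma adjusted p = 0.448), without the line term (1.00) and without the trend (0.0863). The line term was -1.28 ± 0.150 (limma, adjusted p = 7.6e-05), and the Huh1 level was 2.54 times that of Huh7 with NCsiRNA and 4.75 times with CDCA8siRNA. The line term lost its call without the filter (limma adjusted p = 0.0585). Of the 10 hepatocyte markers, 7 were lower with CDCA8siRNA by limma and 3 (APOA2, TTR and AFP) were not called. TTR in Huh7 went from 29.3 to 48.5 RPKM and APOA2 in Huh1 from 1070 to 1340 RPKM, opposite to IGFBP1. The part of these markers in the IGFBP1 difference was not tested.

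IGFBP2, the main binding protein of fetal liver, separated the lines clearly. It was 6.48 RPKM in Huh1 with NCsiRNA, 6.95 in Huh1 with CDCA8siRNA, 78.3 in Huh7 with NCsiRNA and 110 in Huh7 with CDCA8siRNA. The Huh7 level was 12.1 times the Huh1 level with NCsiRNA and 15.8 times with CDCA8siRNA. The line term was 3.60 ± 0.116 (limma, adjusted p = 3.19e-08). The siRNA term was 0.29 ± 0.116 and did not pass (limma, adjusted p = 0.185), with log2 fold changes of 0.09 in Huh1 (sampling SD 0.157) and 0.49 in Huh7 (sampling SD 0.0503). IGFBP2 lies on chromosome 2 of GRCh38 from 216632828 to 216664436 on the plus strand.

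IGFBP3, the principal IGF carrier of blood, differed along both terms. It was 20.1 RPKM in Huh1 with NCsiRNA, 30.9 in Huh1 with CDCA8siRNA, 92.0 in Huh7 with NCsiRNA and 122 in Huh7 with CDCA8siRNA. Within each line the knockdown library was the higher, and both Huh7 libraries lay above both Huh1 libraries. The log2 fold change was 0.60 in Huh1 (sampling SD 0.0722) and 0.41 in Huh7 (sampling SD 0.0375). The siRNA term was 0.50 ± 0.0924 (limma, adjusted p = 0.0205), higher in 2 of 2 lines, and the line term was 2.04 ± 0.0924 (limma, adjusted p = 2.29e-07). The siRNA call was lost without the filter (limma adjusted p = 0.445), without the line term (1.00) and without the trend (0.0955). The Huh7 level was 4.57 times that of Huh1 with NCsiRNA and 3.95 times with CDCA8siRNA. IGFBP1 and IGFBP3 are neighbours on chromosome 7 of GRCh38, IGFBP1 from 45888357 to 45893668 on the plus strand and IGFBP3 from 45912245 to 45921874 on the minus strand, and they were called in opposite directions in both comparisons.

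Some genes used as stromal markers stood higher in the Huh7 libraries of these cultured carcinoma lines, as IGFBP3 did. The 6 stromal markers summed to 12.2 and 25.8 RPKM in Huh1 and to 284 and 377 RPKM in Huh7, and 1 of them, LUM, was higher with CDCA8siRNA. The Huh7 sums were carried by LUM, COL1A1 and COL1A2. DCN was at 0 in both Huh1 libraries and reached 0.406 RPKM in Huh7, and PDGFRB was at 0.399 RPKM or less in every library. The part of these genes in the IGFBP3 difference was not tested. The genes with the pattern most like that of IGFBP3 over the 4 libraries were ARSJ (distance 0.0851) and CCDC28B (0.0986). ARSJ, an arylsulfatase family member, stood at 1.12, 2.26, 8.15 and 10.6 RPKM in the order used above.

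IGFBP4, a carrier that holds IGF from its receptor until the protease PAPPA cuts it, ran the other way between the lines. It was 28.6 RPKM in Huh1 with NCsiRNA, 25.2 in Huh1 with CDCA8siRNA, 10.2 in Huh7 with NCsiRNA and 9.42 in Huh7 with CDCA8siRNA. The Huh1 level was 2.79 times that of Huh7 with NCsiRNA and 2.67 times with CDCA8siRNA, and the line term was -1.36 ± 0.0997 (limma, adjusted p = 4.22e-06). The siRNA term was -0.14 ± 0.0997 (limma, adjusted p = 0.447). PAPPA, singled out after its values were seen, was at 0.0574 and 0.0408 RPKM in Huh1 and at 3.70 and 7.06 RPKM in Huh7. IGFBP4 lies on chromosome 17 of GRCh38 from 40443461 to 40457731 on the plus strand.

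**Figure D3:**
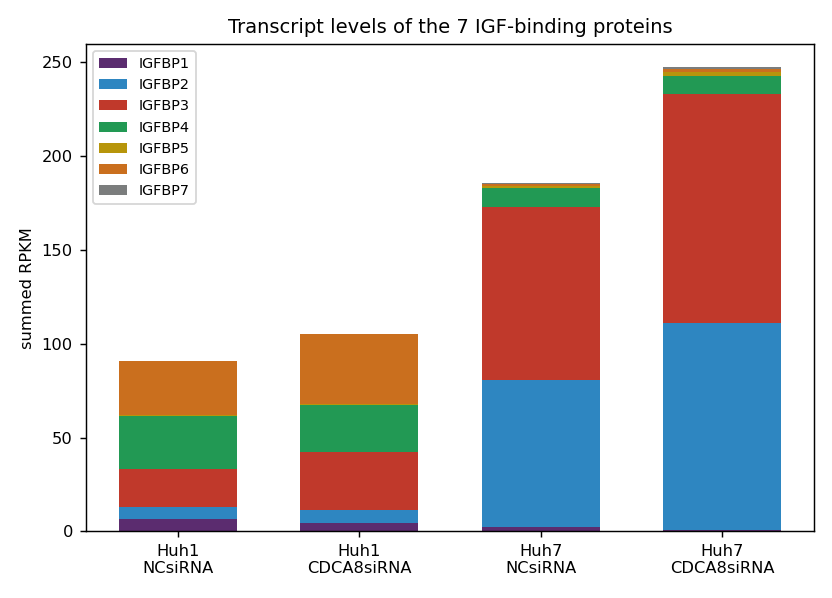
Stacked bars of the RPKM of IGFBP1 to IGFBP7 in the 4 libraries (y axis, summed RPKM from 0), 1 bar per library and no error bars. Huh1 bars are made mostly of IGFBP3, IGFBP4 and IGFBP6, and Huh7 bars of IGFBP2 and IGFBP3. The sums run from 90.9 RPKM in Huh1 with NCsiRNA to 247 RPKM in Huh7 with CDCA8siRNA.

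Adding the other classical carriers shows how the lines differ in make-up as well as amount. IGFBP1 to IGFBP7 summed to 90.9 RPKM in Huh1 with NCsiRNA, 105 in Huh1 with CDCA8siRNA, 186 in Huh7 with NCsiRNA and 247 in Huh7 with CDCA8siRNA. In Huh1 with NCsiRNA, IGFBP6 held 31.9% of that sum, IGFBP4 31.4% and IGFBP3 22.1%. In Huh7 with NCsiRNA, IGFBP3 held 49.5% and IGFBP2 42.1%, and IGFBP6 held 0.594%. IGFBP6, a carrier that prefers IGF2 to IGF1, was thus abundant in the line with almost no IGF2 RNA. It stood at 29 and 37.4 RPKM in Huh1 and at 1.10 and 1.18 RPKM in Huh7 (line term -3.99, limma adjusted p = 2.39e-08). With CDCA8siRNA, IGFBP1 held 4.23% of the sum in Huh1 and 0.379% in Huh7. IGFBP5 was 0.229, 0.304, 0.963 and 2.44 RPKM and IGFBP7 was 0.0673, 0.0683, 0.665 and 1.18 RPKM in the order used above. IGFALS, the subunit that completes the complex of IGFBP3 in blood, was at or below 0.0819 RPKM in all 4 libraries.

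**Figure D4:**
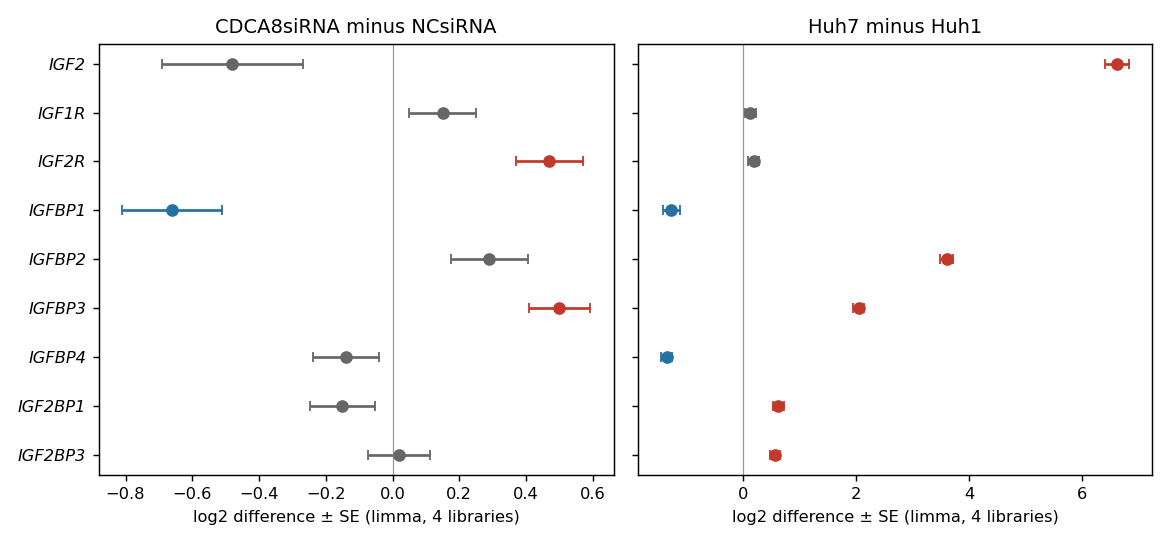
Log2 differences ± SE from limma over 4 libraries for the 9 members in the fit, with CDCA8siRNA minus NCsiRNA on the left and Huh7 minus Huh1 on the right (x axes, log2(RPKM + 1) scale, not the same scale in both panels). Red marks genes called higher, blue genes called lower and grey genes not called. The siRNA terms run from -0.66 for IGFBP1 to 0.50 for IGFBP3, and the line terms from -1.36 for IGFBP4 to 6.62 for IGF2.

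IGF2BP1 and IGF2BP3, which bind IGF2 mRNA and many other transcripts through KH domains and steady or localize them, were well expressed in both lines. IGF2BP1 was 33.7 RPKM in Huh1 with NCsiRNA, 33.0 in Huh1 with CDCA8siRNA, 56.8 in Huh7 with NCsiRNA and 47.1 in Huh7 with CDCA8siRNA. IGF2BP3 was 34.6, 33.0, 48.3 and 52.2 RPKM in the same order. For both genes the 2 Huh7 libraries lay above the 2 Huh1 libraries, and the siRNA groups overlapped. The line term was 0.62 ± 0.0973 for IGF2BP1 (limma, adjusted p = 0.000462) and 0.56 ± 0.0937 for IGF2BP3 (limma, adjusted p = 0.000673), and both calls were lost without the filter (limma adjusted p = 0.0615 and 0.053). The siRNA term was -0.15 ± 0.0973 for IGF2BP1 (limma, adjusted p = 0.415) and 0.02 ± 0.0937 for IGF2BP3 (limma, adjusted p = 0.917). In Huh7 alone, the log2 fold change of IGF2BP1 was -0.26 (sampling SD 0.0277) and the log2 fold change of IGF2BP3 was 0.11 (sampling SD 0.0392), with no test.

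Both RNA-binding proteins were present at nearly the same level in Huh1, where IGF2BP3 stood at 1.03 times IGF2BP1 with NCsiRNA and 1.00 times with CDCA8siRNA. Huh1 therefore carried 33.0 RPKM or more of each binding protein beside 0.0391 RPKM or less of the IGF2 mRNA that gave them their name. IGF2BP2, the member of the family that adult tissues also express, stood at 14.8, 15.4, 26.8 and 28.2 RPKM, and was likewise higher in Huh7 (line term 0.82, limma adjusted p = 7.78e-05). The 3 genes summed to 83.1 and 81.3 RPKM in Huh1 and to 132 and 128 RPKM in Huh7. IGF2BP1 lies on chromosome 17 of GRCh38 from 48997412 to 49055650 on the plus strand and IGF2BP3 on chromosome 7 from 23310209 to 23470467 on the minus strand.

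The let-7 miRNAs are known repressors of the oncofetal programme that includes IGF2BP1, IGF2BP3, LIN28B and HMGA2, and LIN28 proteins in turn block the maturation of let-7. No miRNA was measured here. The mature let-7a is shown with its seed (bases 2 to 8) in capitals, from RefSeq (GRCh38.p14), and all 8 let-7 5p names looked up share that seed. The letters CTACCTC, its complement read 5′ to 3′, are in capitals in windows of 30 bases from the 3′UTRs of the family (GENCODE release 29, GRCh38), which are shown because the members differ in how many they hold.
let-7a-5p: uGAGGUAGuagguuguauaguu
IGF2BP1 site 1, chr17:49051061-49051090, plus strand: tgtgtgcgaagtaaaCTACCTCaaggtatg
IGF2BP1 site 2, chr17:49053698-49053727, plus strand: cagcagtgctagtaaCTACCTCacagagcc
IGF2BP1 site 3, chr17:49054352-49054381, plus strand: gtataaatggattaaCTACCTCaatcctta
IGF2BP1 site 4, chr17:49054997-49055026, plus strand: tcacttttgttttatCTACCTCttagcaaa
IGF2BP2, chr3:185644213-185644242, minus strand: aacacacagaagaagCTACCTCaggtgttt
IGF2BP3, chr7:23311788-23311817, minus strand: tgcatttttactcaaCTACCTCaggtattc

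The 3′UTR of IGF2BP1 holds CTACCTC at 4 places in 6206 bases, that of IGF2BP3 at 1 place in 2153 bases and that of IGF2BP2 at 1 place in 1792 bases. Of the other members, IGF1R holds it at 2 places in 7088 bases and IGF2R at 1 place in 6420 bases, which makes 4 of 10 members. Among all 17284 transcripts with a 3′UTR, 1474 (8.53%) hold it, and among the 2498 with at least 3000 bases, 634 (25.4%) do. The median 3′UTR of the members was 1702 bases, beside 872 bases over all transcripts, and IGF1 is counted with the short transcript that matches its row. The search was of the sense strand, and a match is no measured site.

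The LIN28 genes and their partners in the fixed oncofetal list are given beside these, singled out after their values were seen. LIN28B stood at 15.8 and 20 RPKM in Huh1 and at 50.1 and 67.2 RPKM in Huh7 (line term 1.65, limma adjusted p = 8.59e-07). LIN28A was 0.169 and 0.199 RPKM in Huh1 and 19.5 and 20.3 RPKM in Huh7. HMGA2, a chromatin protein with 4 such letter runs in its 3′UTR, was 1.57 and 1.59 RPKM in Huh1 and 41.7 and 38.9 RPKM in Huh7 (line term 4.0, limma adjusted p = 1.26e-08). LIN28A, LIN28B, HMGA2 and PLAGL1 were all higher in Huh7 by limma, as was the fetal liver protein AFP at 865 and 715 RPKM against 24.8 and 27.5 RPKM in Huh1. LIN28A and PLAGL1 passed the filter only through Huh7, where they are high, so their calls are no independent support for a difference between the lines. HMGA1, of the same list, was lower in Huh7, at 77.9 and 58.6 RPKM against 288 and 279 RPKM. In all, 6 of the 9 genes tested in this list, with LIN28A and PLAGL1 among the 6, were higher in Huh7 and 1 lower. Over all genes tested, the same 42.5% were called higher and 28.7% lower. The median line term of the list was 1.65. With CDCA8siRNA, 0 of the 9 were called, beside 3.74% higher and 2.65% lower over all genes tested.

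**Figure D5:**
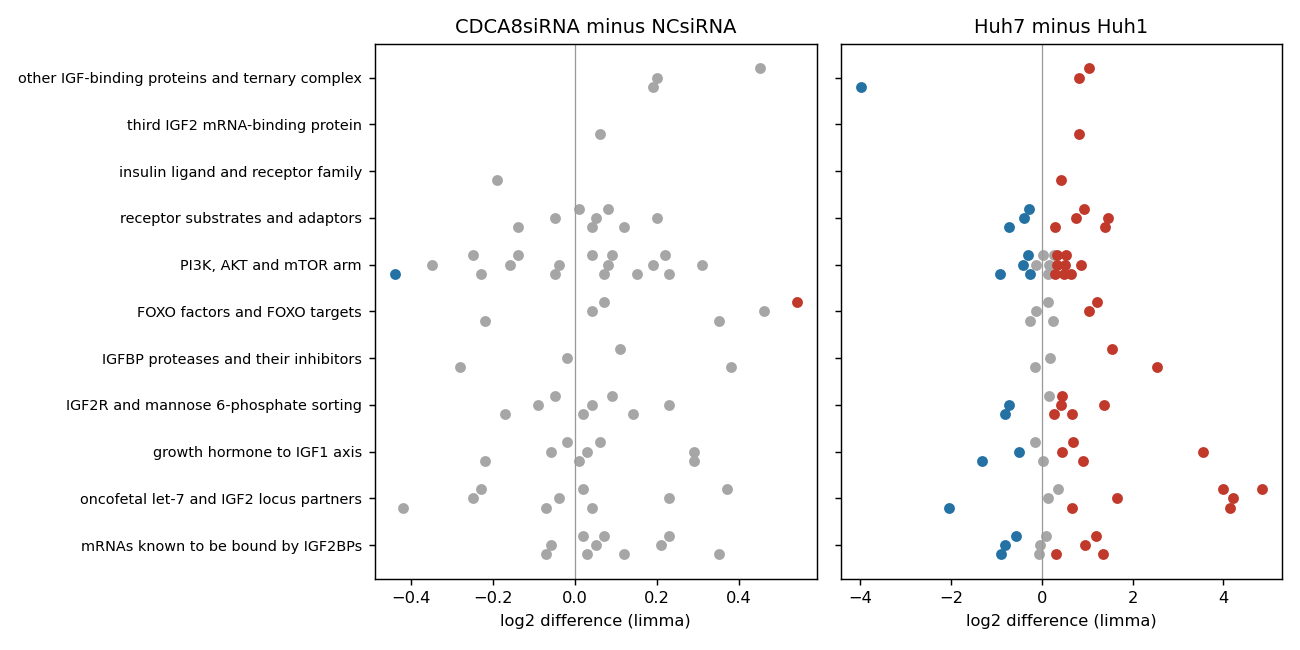
Log2 differences from limma (x axes, log2(RPKM + 1) scale, not the same scale in both panels) for the 75 tested genes of 11 fixed lists around the IGF axis, 1 point per gene. Red marks genes called higher, blue lower and grey not called, and vertical offsets within a list only keep points apart. With CDCA8siRNA only TRIB3 (red) and EIF4EBP1 (blue) were called, while 40 genes were higher and 16 lower in Huh7.

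The wider pathway was taken from 11 lists of 91 genes, of which 89 were in the tables and 75 entered the fit. With CDCA8siRNA, 1 of the 75 was higher and 1 lower, beside 3.74% and 2.65% over all genes tested, and the median log2 difference was 0.04. None of the 75 reached 2-fold in a single line on log2(RPKM + 1), 1 library against 1, although plain RPKM ratios passed 2 at low levels for IGFBP5 in Huh7 (2.53) and PLAGL1 in Huh1 (2.05), and SOCS2 in Huh1 went from 0 to 0.171 RPKM. Between the lines, 40 were higher in Huh7 and 16 lower, with a median of 0.31, beside 42.5% higher, 28.7% lower and a median of 0.141 over all genes tested. The 40 include genes that passed the filter only through Huh7. The gene called higher with CDCA8siRNA was TRIB3, a pseudokinase that binds AKT (0.54, limma adjusted p = 0.0157). It stood at 27.1 RPKM in Huh1 with NCsiRNA, 40.9 in Huh1 with CDCA8siRNA, 25.2 in Huh7 with NCsiRNA and 36.3 in Huh7 with CDCA8siRNA. TRIB3 is also known as a target of the integrated stress response. The gene called lower with CDCA8siRNA was EIF4EBP1, the mTOR substrate that holds back cap-dependent translation (-0.44, limma adjusted p = 0.0274). Its levels were 47.1, 35.8, 69.9 and 49.4 RPKM in the same order.

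The receptor substrates did not pass the test for the siRNA, with 0 of 8 called and a median of 0.045, beside 3.74% higher and 2.65% lower over all genes tested. Between the lines, 5 of the 8 were higher in Huh7 and 3 lower, and this and the counts of the lists that follow stand beside 42.5% higher and 28.7% lower over all genes tested. IRS1, the main docking protein of IGF1R, stood at 6.21 and 6.27 RPKM in Huh1 and at 10.9 and 11.5 RPKM in Huh7. IRS2, its counterpart in liver insulin signalling, stood at 1.56 and 1.78 RPKM in Huh1 and at 5.32 and 6.69 RPKM in Huh7. In the PI3K, AKT and mTOR arm, 8 of 17 genes were higher in Huh7 and 4 lower. Of the growth hormone list, 4 of 8 genes were higher in Huh7 and 2 lower. Among the 4, JAK2, SOCS2 and CISH passed the filter only through Huh7. SOCS2, a feedback inhibitor of the growth hormone receptor singled out after its values were seen, was at 0 and 0.171 RPKM in Huh1 and at 10.3 and 13.3 RPKM in Huh7. Of the mRNAs known to be bound by the IGF2 mRNA-binding proteins, 4 of 10 were higher in Huh7 and 3 lower, with a median line term of 0.03. CD44, among the 4, passed the filter only through Huh7. With CDCA8siRNA, 0 of these 10 were called, beside the same 3.74% and 2.65% over all genes tested.

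The order of the 10 members also differed between the lines. In Huh1 with NCsiRNA the sequence from the top was IGF2R, IGF2BP3, IGF2BP1, IGFBP4, IGFBP3, IGF1R, IGFBP2, IGFBP1, IGF1 and IGF2. In Huh7 with NCsiRNA it was IGF2, IGFBP3, IGFBP2, IGF2BP1, IGF2BP3, IGF2R, IGF1R, IGFBP4, IGFBP1 and IGF1. With 1 library per condition the spread of a level was unknown, so neighbours in these orders, such as IGF2BP3 and IGF2BP1 at 34.6 and 33.7 RPKM in Huh1, could not be ranked. With CDCA8siRNA, IGFBP3 passed IGFBP4 in Huh1 (30.9 and 25.2 RPKM), and IGF2 moved from the top of the order in Huh7 to a place below IGFBP3, IGFBP2 and IGF2R.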

How the data were processed

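RNA of 4 libraries was analysed, mapped to conditions by their titles. The siRNA variant, dose and time are from the study. Per the labels, libraries were made with the TruSeq RNA kit, which does not mark strand, and the submitters' processing notes name hg19, CASAVA 1.8.2 and TopHat2 2.0.9. The counting tool, annotation and filters are not given in the sources used here. The authors deposited 1 value per RefSeq transcript in tables without a header, scaled by them to transcript length and depth, which was taken as RPKM. This is because RPKM times transcript length clusters at multiples of 1 constant per library, but 35.2% to 38.2% of low values were whole within 0.05 of a read, so reads are approximate and no count test was run.

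limma 3.58.1 in R 4.3.3 (lmFit, eBayes with trend) was fitted to log2(RPKM + 1) of the 12148 genes that reached 1 RPKM in any library, with line and siRNA as terms (residual degrees of freedom 1, prior 7.48). The siRNA and line terms use the same 4 libraries. The study's own test was not repeated, as its design is not described for 1 library per condition. Positions, lengths and 3′UTRs are from GENCODE release 29 (GRCh38), with 17768 rows found by their RefSeq identifier, and coordinates are not those of the authors' build. Promoter and miRNA sequences are from RefSeq (GRCh38.p14).

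Text names all 10 members, CDCA8, pathway genes called with the siRNA or at 2-fold, 9 pathway genes whatever their values, and the 3 genes closest to each of the 2 members with the highest mean RPKM, of which 1 is not reported here. The members and lists were chosen with earlier results of these data known. Only the siRNA term of limma and the 2-fold difference in Huh1 were run on simulated data. The planted changes were larger than the siRNA terms of the members, so recovery of changes of their size was not tested. Python 3.11.15 with pandas 2.3.3 and numpy 2.4.6 was used otherwise. Alternatives were a pseudocount of 0.1 RPKM, no filter, a minimum of 5 RPKM, quantile and upper quartile scaling, and limma without each covariate or the trend.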

Additional observations from a re-analysis of the deposited data

Results flagged for a closer look

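A change of opposite direction with CDCA8siRNA in the lines was seen for 3 of the 10 members and for 1 further gene of the ternary complex, in each case from 1 library against 1 library, and the difference between the lines was not tested. For IGF2 the log2 fold change was 0.05 in Huh1, where its level was near 0 RPKM, and -1.01 in Huh7. IGF1 had 0.19 in Huh1 and -0.17 in Huh7, IGF2BP3 had -0.07 and 0.11, and IGFALS had 0.10 and -0.11. The IGF1 and IGFALS values lie under 1 RPKM in every library.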

How the results depend on the processing

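No paired analysis was possible because each condition has 1 library and the labels number no replicates, beyond the line term of the fit, which already pairs the libraries of a line. For the same reason no library could be left out. No called value changed sign. The uncalled Huh7 minus Huh1 difference of IGF2R with NCsiRNA, 0.03, was -0.05 under quantile normalization and -0.03 under upper quartile scaling, and that of IGF1R with CDCA8siRNA, 0.08, was -0.01 under quantile normalization. With CDCA8siRNA, 776 genes were called by limma, against 0 without the filter (2050 at an unadjusted p under 0.05, 2767 as reported), 1260 after quantile normalization, 0 without the cell line covariate (75 unadjusted) and 45 without the trend. The calls of IGF2R, IGFBP1 and IGFBP3 were lost without the filter (limma adjusted p = 0.445, 0.448 and 0.445), without the line covariate (1.00 for each) and without the trend (0.119, 0.0863 and 0.0955), while IGF2R and IGFBP3 were called under the other 4 alternatives and IGFBP1 under 3. Between the lines, 8654 genes were called, against 5433 without the filter, where IGFBP1, IGF2BP1 and IGF2BP3 lost their calls (limma adjusted p = 0.0585, 0.0615 and 0.053). With a pseudocount of 0.1 RPKM, 164 genes reached 2-fold in Huh1 (54 as reported) and 422 in Huh7 (182 as reported), IGFBP1 among the latter at -1.34. Quantile normalization moved the 2-fold calls in Huh1 from 35 higher and 19 lower to 22 and 20. Depth limited IGF1 in all libraries and IGF2 in Huh1.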
